A study of Mus musculus with 6 samples.

Results

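Immediate early genes and the stress genes that answer to tissue dissociation were followed in sorted cells of the mouse ovarian surface epithelium, a mesothelium-like sheet around the ovary. The list held 40 genes, given by name with no threshold on a measured value. Of these, 38 had a probe set of their own among the 22180 named genes. Fosl1 and Gadd45a lay only on probe sets that the annotation shares with another gene, so they are left out of all counts and ranges. A gene with several probe sets is given by its brightest, judged by the mean of all 6 arrays. EGFP-high cells were set against EGFP-low cells, both sorted from untreated female Lgr5-eGFP-CreERT2 mice of 8 to 12 weeks. This allele drives EGFP and a tamoxifen-inducible Cre from the locus of Lgr5, a receptor for R-spondins that marks stem cells in several epithelia, and every mouse of both populations carried it. Each population had 3 arrays (Affymetrix Mouse Gene ST 2.0), each array pooling 8 mice, after pico-scale amplification of the RNA. The series' design text calls the 3 arrays technical replicates, so p-values and intervals measure the spread between arrays and not between animals.

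Immediate early genes are transcribed within minutes of a stimulus without new protein synthesis, through factors such as SRF, the ternary complex factors and CREB that are already present and are activated by MAP kinase and calcium signals. Their products are mostly short-lived transcription factors (AP-1, EGR, KLF and NR4A proteins) together with phosphatases and RNA-binding proteins that shut the response off again. Heat shock genes are driven by HSF1 when unfolded protein accumulates. Enzymatic digestion and sorting of tissue are known to induce both sets in many cell types, and the LH surge is known to induce several of these genes in the ovary.

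The deposited columns were not 6 independent readings. In every probe set high 2 was the average of high 1 with high 3, and low 1 was a fixed combination of low 2, low 3, high 1 and high 3, to within a tolerance of 2e-04, so the 6 columns held 4 independent dimensions. As a result each difference of group means equals high 3 minus low 1, and how tight a group looks is partly set by these relations. A model in which low 1 and high 1 form 1 array set, low 2, low 3 and high 3 another and high 2 one of its own accounts for these relations, and this term, which is in no label, was kept in the fit. Lgr5 itself, the basis of the sort, read 9.00, 8.97 and 8.94 on the log2 scale in the high arrays and 7.84, 7.76 and 8.01 in the low arrays. Of the 14 surface epithelium and mesothelium markers measured, 13 were above 0 in the difference of high minus low, and their mean level ran between 9.30 and 9.35 in the high arrays, against 9.05 to 9.09 in the low arrays. Of 14 leukocyte markers 13 were below 0 (mean level 3.38 to 3.44 in the high arrays, 4.04 to 4.86 in the low arrays), as were 9 of 10 stroma, 5 of 7 luteal and theca and 6 of 7 granulosa markers. Of 8 endothelial markers 5 were above 0, and of the erythroid markers 1 was measured, with a difference of -0.20. Among leukocyte markers the pan-leukocyte gene Ptprc averaged 2.06 in the high and 2.43 in the low arrays, and Lyz2 averaged 2.98 in the high and 6.75 in the low arrays. These are bulk populations, in which fewer cells of a type and less RNA per cell cannot be told apart. The part of these other cell types in the results below was not tested.

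Most immediate early and stress genes read slightly higher in the EGFP-high cells, but none passed the test. Differences of high minus low, always on the log2 scale of the deposited values, were above 0 for 29 of 38 genes and below 0 for 9, with a median of 0.18 and a range of -0.36 to 0.82. Over all 22180 genes the median was 0.02 and 53.8% were above 0. All 38 members lay at or above the median signal of all genes, and among the 11090 genes in that brighter part the median was 0.10 and 66% were above 0. With limma and the array-set term 0 of the 38 passed an adjusted p of 0.05 (smallest 0.828). Of all genes 0.00451% did, a single gene, the steroidogenic enzyme Cyp11a1 of the luteal and theca list, which was lower (-4.74). At an unadjusted p under 0.05 there were 3 members, Nr4a3, Klf4 and Hspa1b, all higher, where 3.04% of all genes were. Limma with group as its only term called 3 members, Klf4, Socs3 and Junb, all higher, where 3.9% of all genes were called higher and 6.67% in either direction. With the arrays also centred on their medians it called 9, all higher, where 6.68% of all genes were called higher and 2.14% lower. With the replicate number as a block limma called 0 members, where 0.018% of all genes were called. The group-only fit counts 4 residual degrees of freedom where the columns allow 2, and its calls are given here as a description.

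**Figure D1:**
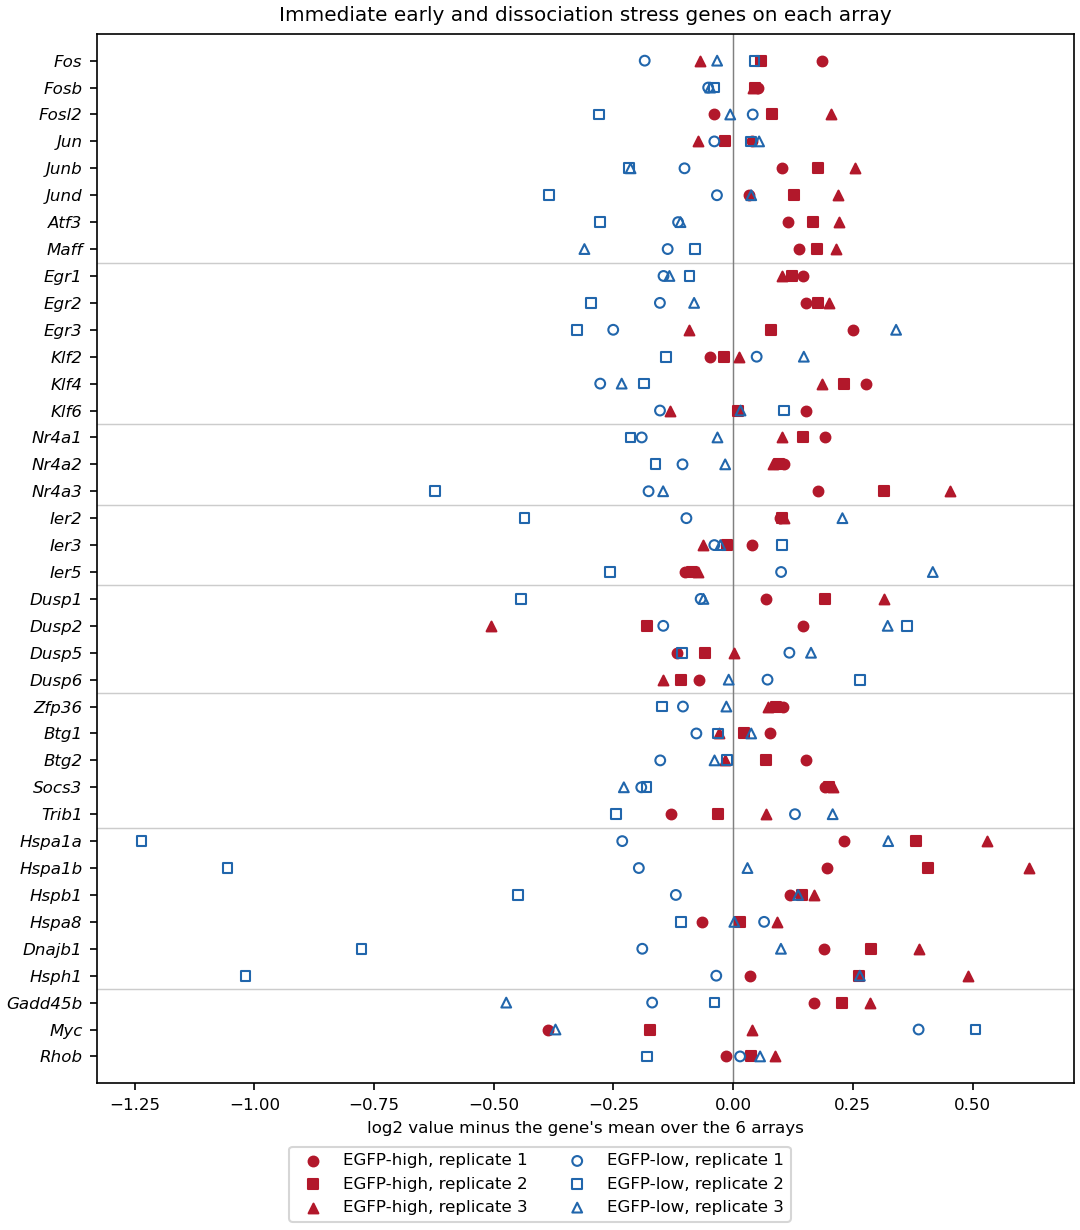
Log2 value of each of the 38 genes on each array, as the distance from the gene's own mean over the 6 arrays (horizontal axis), with filled red symbols for EGFP-high, open blue symbols for EGFP-low and 1 symbol shape per replicate number. Grey lines part the groups of genes by role. Low replicate 2 (open square) is the lowest array for 22 of the 38 genes and lies far left for Hspa1a, Hspa1b, Dnajb1 and Hsph1.

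The high arrays all lay above the low arrays for 16 of 38 genes, against 19.3% of all genes and 27.2% of those in the brighter part. They all lay below them for 1 gene, Dusp6, against 13.9% of all genes. A fold of at least 1.5 was reached by 3 genes, Hspa1a, Hspa1b and Nr4a3, all higher, against 2.19% of all genes, and by 0 genes in the lower direction, against 2.7%. The 95% intervals were wide for differences of this size. Of the 38 intervals, 35 spanned 0, and 8 lay within 1.5-fold of no difference on both sides, so larger differences could not be shown or set aside for the other genes.

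**Figure D2:**
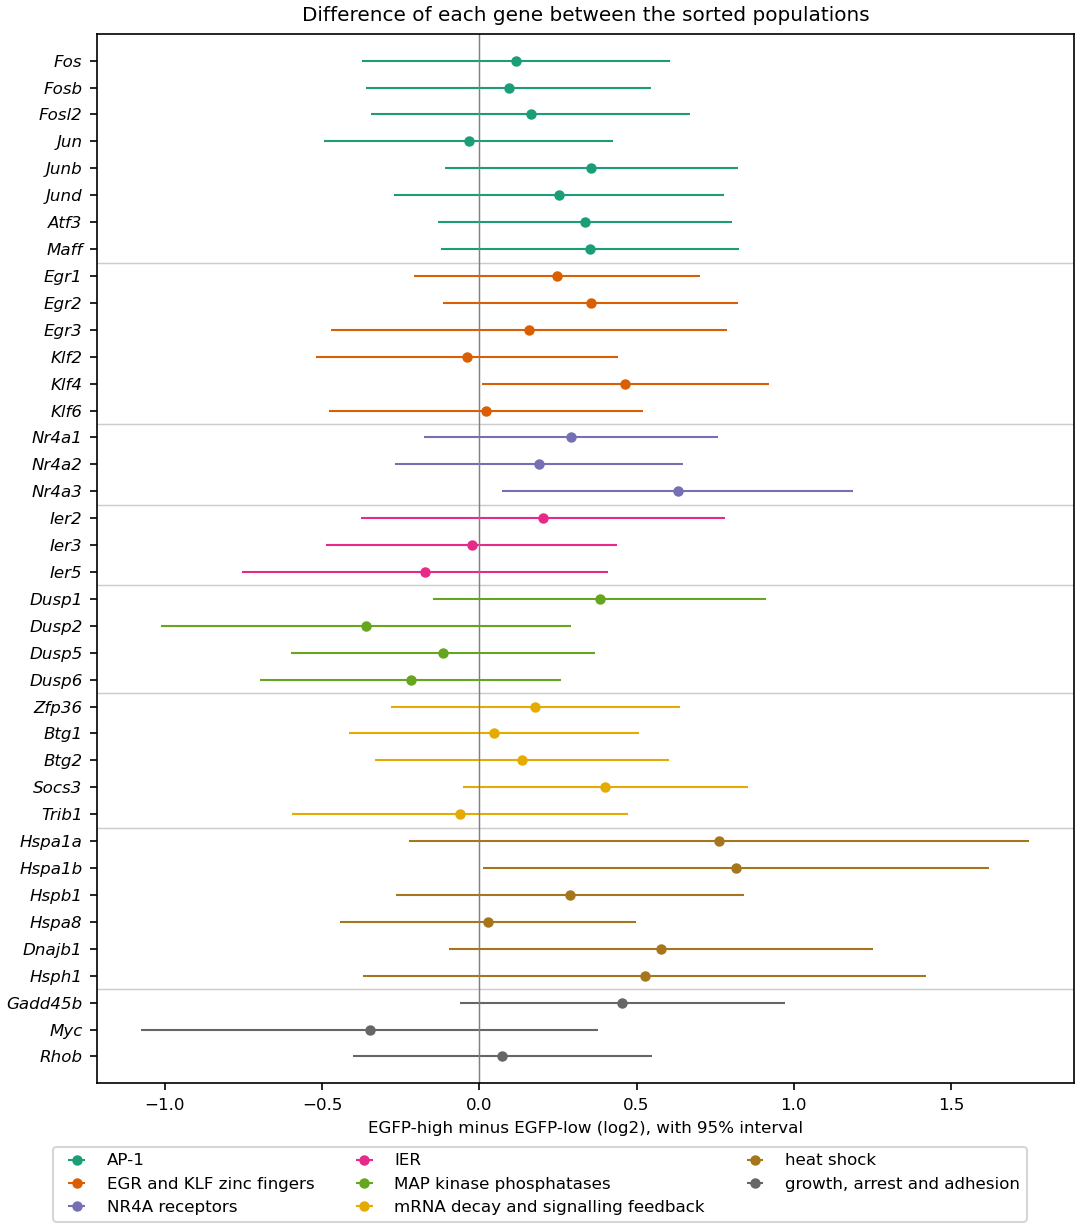
Difference of EGFP-high minus EGFP-low for each gene on the log2 scale (points), with the 95% interval from limma with the array-set term (bars), coloured by role. The 3 intervals that lie wholly above 0 belong to Klf4, Nr4a3 and Hspa1b, and the widest belongs to Hspa1a.

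AP-1 is the dimer of a FOS and a JUN protein that binds enhancers of growth and stress genes, and 8 of its 9 listed genes were measured. Their median difference was 0.21, with 7 above 0 and Jun below. The probe set that Fosl1 shares with Ccdc85b, left out of these counts, gave -0.65 (-1.16 to -0.13). Its signal cannot be assigned to 1 gene. Fos, the classic immediate early gene, read 9.74, 9.62 and 9.49 in the high arrays and 9.38, 9.60 and 9.53 in the low arrays. The groups overlapped, with high 3 below both low 2 and low 3, and the difference was 0.12 (95% interval -0.37 to 0.61). Jun, the main partner of FOS, read 10.46, 10.41 and 10.35 in the high arrays and 10.38, 10.46 and 10.48 in the low arrays. All 6 values lay within 0.13 of each other, the difference was -0.03 (-0.49 to 0.42), and centring the arrays on their medians gave 0.02.

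Among the other AP-1 genes, Junb, which can replace JUN with weaker activation, read 8.32, 8.40 and 8.47 in the high arrays and 8.12, 8.00 and 8.00 in the low arrays. The groups did not overlap, and the difference was 0.36 (-0.11 to 0.82, limma adjusted p = 0.854, or 0.0498 in the group-only fit). Atf3, a stress-induced relative that forms repressive dimers, read 10.80, 10.86 and 10.91 in the high arrays and 10.57, 10.41 and 10.58 in the low arrays. Every high array lay above every low array, at a difference of 0.34 (-0.13 to 0.80). Maff, a small MAF protein, differed by 0.35 (-0.12 to 0.82) and its groups did not overlap either. Jund differed by 0.25, Fosl2 by 0.16 and Fosb by 0.09. Fosb, induced together with Fos, was among the steadiest genes, between 9.98 and 9.99 in the high arrays and between 9.89 and 9.90 in the low arrays.

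The promoters of these genes are known to carry elements for CREB and for EGR proteins. Upstream sequence (250 bases before the transcript start, RefSeq, GRCm38.p6) was available for 32 of the 38 genes, and was searched on both strands. The short cyclic AMP response element TGACGT stood in 9 of the 32 (28.1%), which were Atf3, Btg1, Btg2, Dusp1, Dusp5, Egr2, Fos, Maff and Nr4a3, against 7.29% of 27025 genes. The full element TGACGTCA, which contains the short one on both strands, stood in Btg2, Dusp1 and Maff (9.38%, against 1.77%). The EGR site, GCGTGGGCG or GCGGGGGCG, stood in 9 (28.1%, against 3.47%), and the serum response element in Dusp5, Egr2 and Zfp36 (9.38%, against 1.62%). The AP-1 site TGANTCA stood in 0 of the 32, against 7.82%. These are matches of letters and not measured sites, and the 27025 genes were not matched to the members for base composition or signal. The upstream windows of Fos, Nr4a3 and Dusp1 are shown because they hold the short element, in 3 genes with differences of 0.12, 0.63 and 0.38, with the matches in capitals. They lie at chr12:85473640-85473889 on the plus strand, chr4:48045055-48045304 on the plus strand and chr17:26508473-26508722 on the minus strand.
Fos: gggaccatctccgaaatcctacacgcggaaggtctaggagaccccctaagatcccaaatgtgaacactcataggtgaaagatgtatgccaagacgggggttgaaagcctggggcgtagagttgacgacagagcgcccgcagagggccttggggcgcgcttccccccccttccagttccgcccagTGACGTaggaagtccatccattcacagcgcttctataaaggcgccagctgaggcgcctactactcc
Nr4a3: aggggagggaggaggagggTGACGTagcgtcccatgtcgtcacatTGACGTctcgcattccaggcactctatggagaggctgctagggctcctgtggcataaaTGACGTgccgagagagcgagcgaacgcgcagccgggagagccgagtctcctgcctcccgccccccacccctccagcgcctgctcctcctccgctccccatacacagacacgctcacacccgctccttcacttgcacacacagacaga
Dusp1: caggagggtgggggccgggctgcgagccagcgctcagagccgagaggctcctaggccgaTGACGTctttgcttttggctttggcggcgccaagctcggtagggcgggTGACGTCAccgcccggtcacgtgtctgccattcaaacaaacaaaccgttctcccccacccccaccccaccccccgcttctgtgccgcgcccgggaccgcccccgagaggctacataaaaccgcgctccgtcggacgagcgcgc
Fos has 1 match, 66 bases before the start, Nr4a3 has 3, and Dusp1 has 3, of which 2 overlap in the full element. The 9 genes with the short element differed by 0.05 (Btg1) to 0.63 (Nr4a3), apart from Dusp5 at -0.12. Of all 38 members 29 were above 0, as were 66% of genes in the brighter part. The part of the element in the differences was not tested.

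Of the zinc-finger factors, EGR proteins bind GC-rich promoters of growth and feedback genes, and KLF proteins control epithelial and endothelial state. Their 6 members had a median difference of 0.20, 5 above 0 and Klf2 below. Egr1, induced by nearly every MAP kinase stimulus and needed for ovulation through its role in the pituitary, read 10.85, 10.83 and 10.81 in the high arrays and 10.56, 10.62 and 10.57 in the low arrays. The groups did not overlap, and the difference was 0.25 (-0.21 to 0.70). Egr2 differed by 0.35 (-0.11 to 0.82) with no overlap, and Egr3 by 0.16 (-0.47 to 0.79) with low 3 above all high arrays.

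Klf4, a factor of epithelial differentiation and one of the reprogramming factors, read 7.74, 7.69 and 7.65 in the high arrays and 7.18, 7.27 and 7.23 in the low arrays. Its gap of 0.46 (0.01 to 0.92) was several times the range of either group, a range that the column relations partly set. Klf4 had a limma adjusted p of 0.840, or 0.0246 in the group-only fit. It was higher in both contrasts within array sets, by 0.56 between high 1 and low 1 and by 0.40 between high 3 and the average of low 2 with low 3. Klf6 (0.02) and Klf2 (-0.04), a shear-stress factor of endothelium, overlapped between the groups, and Klf2 turned to above 0 when arrays were centred on their medians. The upstream windows of Klf4 and Socs3, the called genes of the group-only fit that hold an EGR site, are shown with that site in capitals, on the minus strand at chr4:55532476-55532725 and chr11:117969367-117969616.
Klf4: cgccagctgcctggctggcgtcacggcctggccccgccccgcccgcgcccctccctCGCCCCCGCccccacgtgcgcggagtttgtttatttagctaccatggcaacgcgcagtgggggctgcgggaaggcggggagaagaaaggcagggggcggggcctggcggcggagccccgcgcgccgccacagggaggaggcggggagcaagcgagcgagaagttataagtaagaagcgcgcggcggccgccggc
Socs3: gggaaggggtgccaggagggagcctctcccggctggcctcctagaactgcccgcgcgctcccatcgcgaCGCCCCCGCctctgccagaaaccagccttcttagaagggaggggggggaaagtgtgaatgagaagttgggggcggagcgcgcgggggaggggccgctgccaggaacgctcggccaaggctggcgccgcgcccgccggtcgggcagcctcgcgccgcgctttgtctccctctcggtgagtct

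NR4A receptors are orphan nuclear receptors without a known natural ligand, whose activity follows their level. All 3 members read higher in the high cells without overlap, as did 19.3% of all genes and 27.2% of those in the brighter part. Their median was 0.29. Nr4a1, known in the ovary as a factor that LH induces in theca and granulosa cells, read 10.64, 10.60 and 10.55 in the high arrays and 10.26, 10.24 and 10.42 in the low arrays. The difference was 0.29 (-0.17 to 0.76). Nr4a2 differed by 0.19 (-0.27 to 0.65). Nr4a3 read 7.37, 7.50 and 7.64 in the high arrays and 7.01, 6.57 and 7.04 in the low arrays. Low 2 stood below the other 2 low arrays, and the difference was 0.63 (0.07 to 1.19, limma adjusted p = 0.828), or 0.48 without low 2 and 0.35 without high 3. In the authors' deposited table Nr4a3 stands at a ratio of 1.64.

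The IER genes, named only for their early response, held no shared direction. Ier2 differed by 0.20 (-0.38 to 0.78), Ier3, an ERK-linked survival gene, by -0.02 (-0.49 to 0.44) and Ier5, a coregulator of HSF1, by -0.17 (-0.76 to 0.41). Ier2 and Ier5 spread over 0.66 and 0.67 in the low arrays, with low 2 lowest and low 3 highest in both.

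The dual-specificity phosphatases switch MAP kinases off and are themselves induced by them. Of 4 members 3 were below 0 and the median was -0.17. Dusp2, a nuclear ERK phosphatase of immune cells, read 4.47, 4.14 and 3.81 in the high arrays and 4.17, 4.68 and 4.64 in the low arrays. The groups overlapped, and the difference of -0.36 (-1.01 to 0.29) turned to 0.29 without high replicate 3. Dusp6, the cytoplasmic ERK phosphatase that reports FGF and ERK activity, read 8.88, 8.84 and 8.81 in the high arrays and 9.03, 9.22 and 8.94 in the low arrays. It was the 1 member with all high arrays below all low arrays, by -0.22 (-0.70 to 0.26). A dimmer probe set of Dusp6 gave -0.73 (-1.47 to 0.01), and the authors' deposited table lists that probe set at a ratio of 0.598. Dusp5, specific for nuclear ERK, differed by -0.12 (-0.60 to 0.37). Dusp1, which acts on p38 and JNK and is a standard marker of dissociated tissue, went the other way, with 8.47, 8.60 and 8.72 in the high arrays against 8.34, 7.96 and 8.34 in the low arrays, a difference of 0.38 (-0.15 to 0.91). Without high 3 the difference of Dusp1 was 0.14, and without high 1 or low 1 it was 0.57, the same as its contrasts within array sets.

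Genes of mRNA decay and signalling feedback had a median of 0.14 over 5 members. Zfp36 (tristetraprolin), which brings AU-rich transcripts to decay, read 11.56, 11.54 and 11.53 in the high arrays and 11.35, 11.31 and 11.44 in the low arrays. The groups did not overlap, at a difference of 0.18 (-0.28 to 0.64). Btg2, an antiproliferative partner of the deadenylase complex, read 11.01, 10.92 and 10.84 in the high arrays and 10.70, 10.84 and 10.82 in the low arrays. Here high 3 lay within the low values and the difference was 0.14 (-0.33 to 0.60). Its relative Btg1 differed by 0.05, and Trib1, a pseudokinase that targets C/EBP proteins for degradation, by -0.06.

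Socs3, the inhibitor of gp130 cytokine signals and a STAT3 target, read 7.24, 7.25 and 7.26 in the high arrays and 6.86, 6.87 and 6.82 in the low arrays. Both groups were tight, which the column relations partly set. The difference of 0.40 (-0.05 to 0.85) had a limma adjusted p of 0.850, or 0.0265 in the group-only fit. A dimmer Socs3 probe set gave 0.32 (-0.41 to 1.05). The 2 contrasts within array sets were 0.38 and 0.41. Leaving out any 1 array gave 0.38 to 0.41, but leaving out high 3, high 1 or low 1 only returns these contrasts.

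Of the 8 role groups, heat shock had the highest median difference and the widest spread over the low arrays. Its 6 members were all above 0, with a median of 0.55 and a median range of 0.98 over the low arrays, against 0.25 over the high arrays. Hspa1a and Hspa1b encode the inducible HSP70, Hspa8 the constitutive one, Dnajb1 and Hsph1 its co-chaperone and nucleotide exchange factor, and Hspb1 the small chaperone HSP27. Hspa1b read 9.12, 9.33 and 9.54 in the high arrays and 8.73, 7.87 and 8.95 in the low arrays. Low 2 was far below the other 2 low arrays, and the groups did not overlap. The difference was 0.82 (0.01 to 1.62, limma adjusted p = 0.840), a fold of 1.76.

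Hspa1a read 7.84, 7.99 and 8.14 in the high arrays and 7.38, 6.37 and 7.93 in the low arrays. Low 3 lay above high 1, so the groups overlapped, and the difference was 0.76 (-0.22 to 1.75). Dnajb1 read 5.77, 5.87 and 5.97 in the high arrays and 5.39, 4.80 and 5.68 in the low arrays, a difference of 0.58 (-0.09 to 1.25). Its groups did not overlap, low 2 again being the lowest value. Hsph1 read 7.07, 7.29 and 7.52 in the high arrays and 7.00, 6.01 and 7.30 in the low arrays, a difference of 0.53 (-0.37 to 1.42), and low 3 lay among the high values. Hspb1 differed by 0.29 (-0.27 to 0.84), and a dimmer probe set gave 0.50 (-0.19 to 1.19). In the authors' deposited table Hspa1b stands at a ratio of 1.92, Hspa1a at 1.65 and Hsph1 at 1.55.

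Hspa8, the constitutive HSP70, read 11.63, 11.71 and 11.79 in the high arrays and 11.76, 11.59 and 11.70 in the low arrays. The groups overlapped and the difference was 0.03 (-0.44 to 0.50). Of its 3 other probe sets, 1 was nearly the same (0.03), 1 gave 0.26 (-0.26 to 0.78) and 1 gave -0.13 (-0.66 to 0.40).

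**Figure D3:**
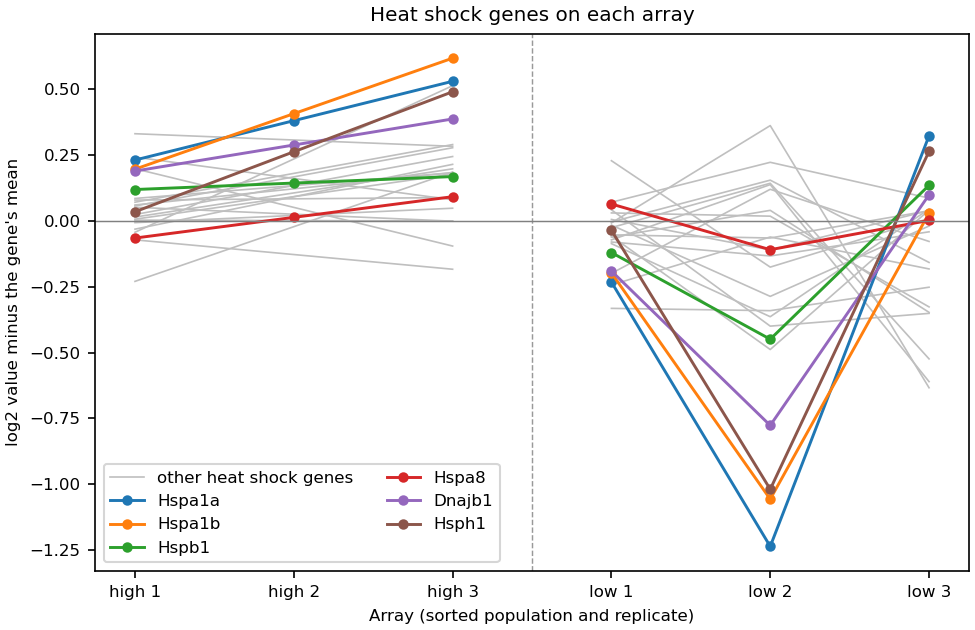
Log2 value of the 6 heat shock members (coloured) and 18 other heat shock genes (grey) on each array, as the distance from each gene's mean, with the EGFP-high arrays left of the dashed line and the EGFP-low arrays right of it. Lines join arrays of 1 population only to mark a gene, since replicates have no order. All 6 members have their lowest value on low 2, and 8 of the 18 other genes do.

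Low replicate 2 was the lowest of the 6 arrays for 6 of 6 heat shock members and for 16 of the other 32 members, against 24.9% of all genes. This share was not computed for the brighter part or for genes above 0. On low 2 the heat shock members stood a median of 0.90 below their means over the 6 arrays, while all genes together stood 0.01 below. Without low 2 the median difference of the heat shock members was 0.24, with 0.49 for Hspa1b, 0.34 for Hspa1a, 0.33 for Dnajb1 and 0.15 for Hsph1. Without high 3 the median was 0.31, and Hsph1 differed by 0.07. Low 2 had the highest mean level of leukocyte markers (4.86, against 4.40 and 4.04 in the other low arrays) and of stroma markers (5.44, against 5.12 and 4.91). Their part in the heat shock values was not tested.

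Hspa1a and Hspa1b lie close together on chromosome 17 and are near-identical copies, so their probe sets may share signal and the 2 genes are not independent readings. Their upstream windows, chr17:34972157-34972406 and chr17:34959239-34959488 on the minus strand, matched at 247 of 250 positions. The heat shock element pair GAANNTTC, a pair of inverted units bound by HSF1, stood in Hspa1a, Hspa1b and Hspb1 of the 5 heat shock members with a sequence, in Fosl2 and Jun among the others, and in 7.73% of 27025 genes. The windows are shown with that pair in capitals, with Hspb1 at chr5:135887669-135887918 on the plus strand.
Hspa1b: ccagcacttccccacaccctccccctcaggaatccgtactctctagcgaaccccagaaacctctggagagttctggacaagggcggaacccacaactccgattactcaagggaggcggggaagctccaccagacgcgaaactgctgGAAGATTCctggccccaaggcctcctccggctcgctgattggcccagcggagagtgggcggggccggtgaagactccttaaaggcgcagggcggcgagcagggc
Hspa1a: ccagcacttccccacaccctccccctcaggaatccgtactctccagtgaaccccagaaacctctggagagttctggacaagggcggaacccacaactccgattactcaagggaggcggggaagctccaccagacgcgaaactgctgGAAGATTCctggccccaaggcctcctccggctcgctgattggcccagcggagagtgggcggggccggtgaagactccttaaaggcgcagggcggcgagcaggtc
Hspb1: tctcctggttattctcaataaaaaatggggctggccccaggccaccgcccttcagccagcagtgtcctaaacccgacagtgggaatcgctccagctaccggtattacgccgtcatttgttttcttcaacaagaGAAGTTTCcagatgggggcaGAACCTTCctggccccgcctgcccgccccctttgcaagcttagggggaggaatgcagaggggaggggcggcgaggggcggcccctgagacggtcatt
Both HSP70 windows hold 1 pair, 104 bases before the start, and Hspb1 holds 2.

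Of the growth and arrest genes 3 of 4 were measured on a probe set of their own. The probe set that Gadd45a shares with another gene gave -0.04 (-0.57 to 0.50). Myc, the growth factor-induced transcription factor and a Wnt target in gut epithelium, read 7.26, 7.47 and 7.69 in the high arrays and 8.04, 8.15 and 7.28 in the low arrays. Low 3 lay with the high arrays, the difference was -0.35 (-1.07 to 0.38), and it was -0.77 within the first array set and -0.03 within the second. Gadd45b, a stress sensor upstream of p38, differed by 0.45 (-0.06 to 0.97) with no overlap between the groups. Rhob, an early-response GTPase of endosomes, differed by 0.07 (-0.40 to 0.55).

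The array sets allow 2 contrasts, high 1 minus low 1, and high 3 minus the average of low 2 with low 3. Both were above 0 for 22 of 38 members, against 31% of all genes, and both below 0 for 4, against 24.1%. All 38 members lay in the brighter part, for which these shares were not computed. Their medians over the members were 0.21 and 0.19. Of the heat shock members, Hspa1b had 0.39 and 1.13, Hspa1a 0.46 and 0.99, and Hsph1 0.07 and 0.87. Fos went 2 ways, 0.37 in the first and -0.07 in the second, as did Egr3 (0.50 and -0.10) and Dusp2 (0.29 and -0.85). Since low 1 can be computed from the other columns, both contrasts hang on the inferred array sets. Leaving out high 3 returns the first contrast, and leaving out high 1 or low 1 the second, so these fits are no separate check.

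**Figure D4:**
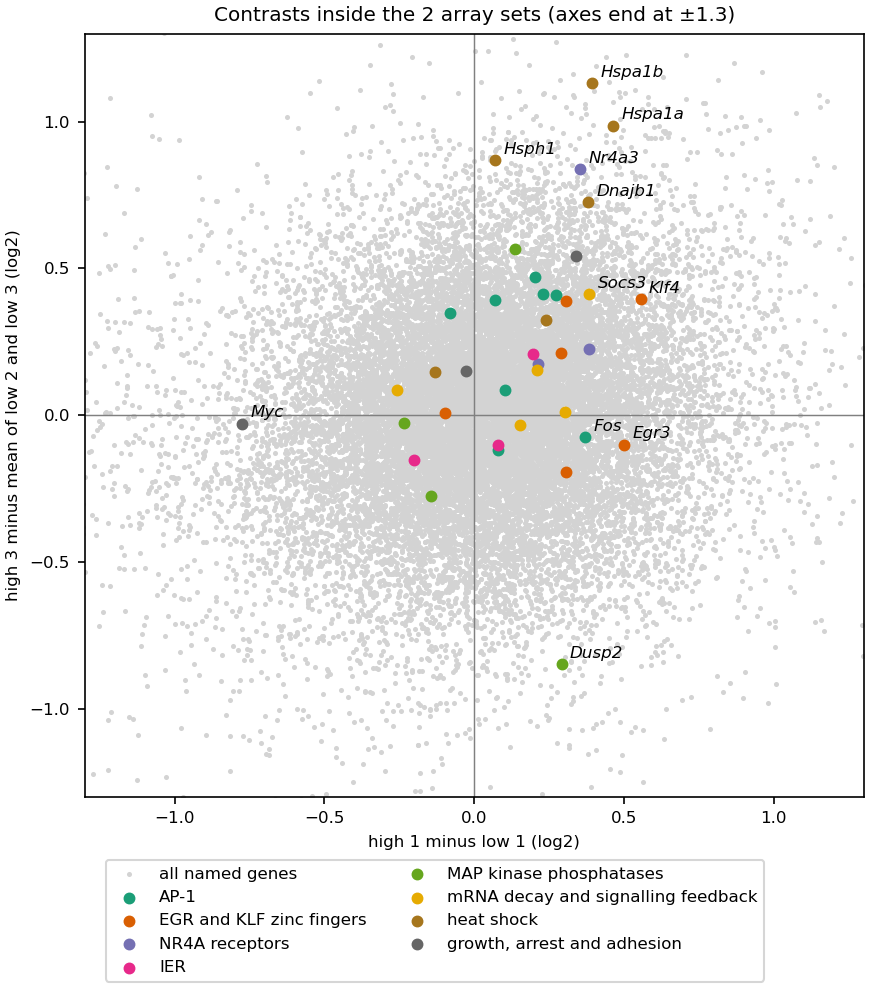
Difference in the first array set (high 1 minus low 1, horizontal axis) against that in the second (high 3 minus the average of low 2 with low 3, vertical axis), both log2, for all named genes (grey) and the 38 members coloured by role. Members lie mostly in the upper right corner, above 0 on both axes (22 of 38), with Hspa1a, Hspa1b and Hsph1 high on the vertical axis and Myc far left.

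Differences over all genes were slightly larger at high mean signal, and after that trend was removed the median of the members was 0.06 in place of 0.18, with 23 of 38 above 0, against 49.5% of all genes. The median of the heat shock members was then 0.44. Klf4 kept 0.33, Socs3 0.27 and Nr4a3 0.50, and the differences of Fos, Fosb, Klf6, Btg1, Hspa8 and Rhob turned below 0.

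**Figure D5:**
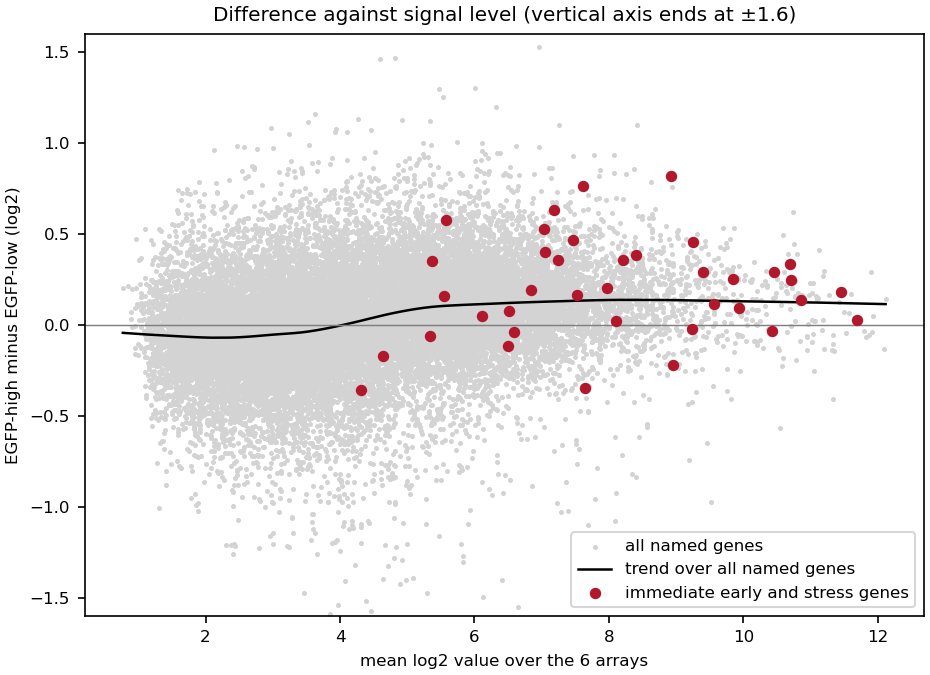
Difference of EGFP-high minus EGFP-low (log2, vertical axis) against mean log2 value over the 6 arrays (horizontal axis) for all named genes (grey) and the 38 members (red), with the trend over all named genes (black line). The members sit at mean values where the trend is above 0.

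A second list held other early-response genes. Of 57 measured immediate and delayed early genes, 32 were above 0 (56.1%). Of all genes 53.8% were, and of those in the brighter part 66%. Their median was 0.04, against 0.02 over all genes and 0.10 in the brighter part. Limma with the array-set term called 0 of them. At an unadjusted p under 0.05 there were 6, of which 5 were lower, where 5.92% of all genes passed that level in either direction. With group alone limma called 2 higher and 4 lower, where 3.9% of all genes were called higher and 2.77% lower. Sgk1, a serum- and glucocorticoid-induced kinase, averaged 5.18 in the high arrays and 6.48 in the low arrays, a difference of -1.31 (-1.83 to -0.78). Cxcl2, a neutrophil chemokine, differed by -1.10 (-1.64 to -0.55), Ereg, the EGF-family ligand epiregulin that LH induces in the follicle, by -1.08 (-1.95 to -0.21), and Ccn2, a matricellular YAP and SRF target, by -0.77 (-1.25 to -0.28). Plk3, a stress-activated polo-like kinase, differed by 0.53 (0.05 to 1.01). Each of Sgk1, Cxcl2, Ereg and Ccn2 had all high arrays below all low arrays, as did 13.9% of all genes. Ereg differed by -2.09 in the first array-set contrast and by -0.33 in the second.

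Heat shock genes outside the 40 were above 0 in 16 of 18 cases, against 53.8% of all genes and 66% of those in the brighter part. Their median was 0.20. Limma called 0 of them, with 1 at an unadjusted p under 0.05, a level that 5.92% of all genes passed. The group-only fit called 1, the same gene, where it called 6.67% of all genes. That gene was Bag3, the HSF1-induced HSP70 co-chaperone, which read 8.37, 8.35 and 8.32 in the high arrays and 7.71, 7.70 and 7.79 in the low arrays. Unlike Hspa1a and Hspa1b it was not set apart on low 2, and the difference was 0.62 (0.16 to 1.07), with 0.66 and 0.58 in the 2 array-set contrasts. Hspe1, the mitochondrial co-chaperonin, differed by 0.47 (-0.13 to 1.08), but by -0.09 in the first array-set contrast and 0.89 in the second. Hspb8 differed by 0.36, Ahsa1, an HSP90 activator, by 0.34 and Hsp90aa1, the inducible HSP90, by 0.32 (-0.15 to 0.80). On low 2 these 18 genes stood a median of 0.06 below their means.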

How the data were processed

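Expression was measured on 6 arrays, 3 of EGFP-high and 3 of EGFP-low cells. The authors deposited log2 values for 41345 probe sets, whose medians per array lay between 3.76 and 3.85. The submitters' processing notes name Expression Console and RMA, with no version; the build is not given in the sources used here. A comparison table deposited by the authors lists 1134 probe sets of at least 1.5-fold, each with a ratio, high over low. Its ratios were copied only where named. Of the columns of per-sample values, 0 lacked a sample.

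The platform annotation gave the gene names: 23521 probe sets had 1 symbol, 1820 several and 16004 were unlisted. The brightest probe set per gene gave 22180 genes, with no filter on dim genes and no further normalization. Limma 3.58.1 in R 4.3.3 (lmFit, eBayes, two-sided, Benjamini-Hochberg over all genes, threshold 0.05) was fitted with group and array set (2 residual degrees of freedom), and tested on simulated data. Array sets were found among 201 partitions of the arrays as the 1 that gives the column relations. Intervals are 95% limits from this fit, unadjusted. Second and shared probe sets were fitted over all probe sets.

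The members, the other gene lists and the tests were chosen with earlier results of these data known. The naming rule named every member, and gave all arrays for the 3 brightest, the 3 highest and 3 lowest differences, those past 0.05 unadjusted or with group alone, and Fos, Jun, Egr1, Atf3, Hspa1a and Nr4a1. Dusp1, Dnajb1, Hsph1, Bag3 and Ddit3 were also given on all arrays, chosen after their values were seen, as was Lyz2. Of each other list the 5 genes with the smallest p were named. Alternatives were group alone, the replicate number as a block, centring, quantile normalization, a brightness filter, averaged probe sets, removal of the brightness trend (lowess, span 0.3), an intensity trend in eBayes and each array left out. Promoter sequences are from RefSeq (GRCm38.p6). The number of arrays limits the precision.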

Additional observations from a re-analysis of the deposited data

How the results depend on the processing

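With limma and the array-set term, 0 members were called under each of the other settings that kept this term, the leave-one-out fits included, while 0 to 7 had an unadjusted p under 0.05, as did 769 (of 11090 genes, dim genes left out) to 1696 of all genes. With the brightness trend removed, with quantile normalization and without high replicate 3 that count of members was 0, so Klf4, Nr4a3 and Hspa1b each lost that level there. Group alone called 3 members, 8 genes of the other lists and 1479 of all genes (865 higher, 614 lower), and counts degrees of freedom that the columns do not hold. Settings chosen after seeing the data were group alone with centred arrays (9 members, 11 other genes and 1955 of all genes, 1481 higher and 474 lower) and group alone without low replicate 2 (6, 11 and 2583). The members median difference was 0.062 with the brightness trend removed, and between 0.12 and 0.25 under every other setting. Over all genes limma called 0 with averaged probe sets (1337 at an unadjusted p under 0.05) and, leaving out 1 array at a time, 1 to 23. The median of the heat shock members, a summary chosen after seeing the data, ran from 0.24 (without low 2) to 0.80 over the same fits. The 23 calls came without high replicate 3, and without low replicate 3 there were 3. Up to 6 of 38 member differences changed sign under a single setting (without high 1 or low 1, without high 3, and with the trend removed).

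The titles number the replicates 1 to 3 in both groups, with no statement that the numbers pair arrays. Whether they do could not be checked, because the relations between the columns fix the deviations from the group means (-1 as the correlation for number 1, and none for high 2). With the replicate block, limma called 4 of all genes and 0 members (smallest adjusted p 0.189).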

Other observations

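Genes of the endoplasmic reticulum stress response were above 0 in 8 of 11 cases, against 53.8% of all genes and 66% of those in the brighter part. Their median was 0.22. Limma with the array-set term called 0 of them (0 at an unadjusted p under 0.05, and 0 with group alone). Ddit3, the proapoptotic factor CHOP, read 7.79, 7.92 and 8.05 in the high arrays and 7.43, 6.63 and 7.83 in the low arrays, a difference of 0.63 (-0.19 to 1.45), with low 2 again the lowest array. Herpud1, of the degradation machinery, differed by 0.43 (-0.23 to 1.08), Trib3 by 0.31, Sesn2 by 0.25 and the glutathione-degrading Chac1 by -0.38.

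Kinases and factors upstream of immediate early genes were above 0 in 12 of 17 cases, with a median of 0.09. Of all genes 53.8% were above 0, and of those in the brighter part 66%. Rps6ka3, the ERK-activated kinase RSK2, averaged 7.51 in the high arrays and 6.84 in the low arrays. Its difference was 0.67 (0.19 to 1.15, limma adjusted p = 0.787, or 0.0223 in the group-only fit), with no overlap between the groups. Map2k1 (MEK1) differed by 0.31 (-0.15 to 0.77), Mkl2, an SRF coactivator, by 0.31, Map2k3 by 0.22 and Map2k4 by 0.19.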
